A study of Mus musculus with 19 samples.

Results

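Transcription factors and a co-activator subunit that act at enhancers of milk protein genes were followed in total RNA-seq of mouse mammary tissue. The members are 10 of the 24421 genes in the count tables, taken by symbol from all 19 libraries: Elf5, Ehf, Gata3, Nfib, Nfia, Nr3c1, Cebpb, Cebpd, Stat6 and Med1. All 10 passed the filter of at least 10 reads in total. WT C57BL/6 tissue gave 3 libraries at pregnancy day 6 (p6) and 3 at pregnancy day 18 (p18). Tissue labelled Enhancer-delS1-4, taken here as ΔSE, the germline CRISPR/Cas9 deletion of the super-enhancer 3′ of Prr27, on the far side of that gene from Csn1s2b, that the study describes, gave 4 libraries at p6 and 4 at p18. Another 3 libraries carry the label delCsn1s2b-E, a deletion of an enhancer of Csn1s2b. A further 2 carry the label delCsn3-PE, taken here as a deletion of the proximal enhancer of Csn3. All mice are labelled C57BL/6. Per the study's methods its mice came from C57BL/6N stock and were females of 8 to 12 weeks. Its mutants were homozygous for germline deletions, which are not restricted to the epithelium. The study names no line with the label delCsn1s2b-E or delCsn3-PE, so that carrying these statements over to those lines is an assumption. The stage of these last 5 libraries is uncertain: their stage label reads p18, while their extraction notes name WT tissue in lactation. Whole tissue was used, so that fewer cells of a type and less RNA of a gene per cell cannot be told apart.

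Milk protein genes are switched on in alveolar cells by prolactin through STAT5, which binds enhancers together with nuclear factor I proteins and the glucocorticoid receptor (GR). ELF5 is an ETS factor of the alveolar lineage, whose loss blocks alveolar development, and EHF is an epithelial ETS factor encoded next to it. GATA3 maintains the luminal lineage, C/EBPβ is needed for alveolar growth and C/EBPδ acts in the arrest of growth and in involution. NFIB and NFIA are nuclear factor I proteins, Nr3c1 encodes the GR, STAT6 transmits interleukin-4 and interleukin-13 signals, and MED1 is the Mediator subunit through which nuclear receptors contact the transcription machinery.

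Elf5, the member with the largest change between stages, has 2 annotated RefSeq starts on chromosome 2, 11970 bases apart. The gene spans chr2:103411688-103450989 on the plus strand of GRCm38, and Ehf lies on the minus strand at chr2:103263433-103303278, 108 kb away, the pair being transcribed in opposite directions away from the gap. In the same build (GENCODE vM21) Gata3 spans chr2:9857078-9890034 (minus strand), Cebpb chr2:167688915-167690418 (plus), Nfib chr4:82290173-82705750 (minus) and Nfia chr4:97772734-98118874 (plus). Cebpd spans chr16:15887286-15891031 (plus), Stat6 chr10:127642986-127660957 (plus) and Med1 chr11:98152154-98193293 (minus), and counts are over exons. Both Elf5 promoter windows, 250 bases before to 50 bases after the start from RefSeq (GRCm38.p6), are shown because NFIB recognition sites are a feature of milk enhancers. Capitals mark TGGCA or its reverse complement TGCCA.
Elf5, first start, chr2:103411848-103412147, plus strand: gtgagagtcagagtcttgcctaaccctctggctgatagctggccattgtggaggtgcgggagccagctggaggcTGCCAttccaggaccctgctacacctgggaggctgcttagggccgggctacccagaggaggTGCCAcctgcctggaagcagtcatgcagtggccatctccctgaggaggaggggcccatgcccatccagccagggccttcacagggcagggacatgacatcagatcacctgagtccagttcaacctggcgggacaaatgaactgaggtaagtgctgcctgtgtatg
Elf5, second start, chr2:103423818-103424117, plus strand: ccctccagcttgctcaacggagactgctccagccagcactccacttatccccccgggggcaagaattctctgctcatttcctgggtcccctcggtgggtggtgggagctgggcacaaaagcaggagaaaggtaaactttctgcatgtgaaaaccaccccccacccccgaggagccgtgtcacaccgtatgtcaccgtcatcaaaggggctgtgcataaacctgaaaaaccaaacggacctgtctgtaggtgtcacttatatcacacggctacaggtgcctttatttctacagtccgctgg
The first window held 2 such nuclear factor I sites, beginning 176 and 115 bases before the start, and the second held none. This site was found on either strand in 48.9% of all 32851 promoter windows of the table, so that its presence does not set Elf5 apart. Of 7 windows found for 6 members (Cebpb, Elf5, Gata3, Med1, Nfia and Stat6), 5 held it. The STAT recognition sequence TTCNNNGAA was in 0 of the 7 windows and in 8.30% of all windows, and TTCNNNNGAA, with a spacer of 4 bases, was in 0 of 7 and in 6.95% of all. The GATA sequence AGATAA or TTATCT was in 1 of the 7 windows, that of Nfia, against 11.2% of all windows. This Nfia window, chr4:97581693-97581992, is at a RefSeq start upstream of and outside the GENCODE span of Nfia given above. Counts are summed over the gene, so that reads from the 2 Elf5 starts are not separated.

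Reads in genes came to between 12335272 and 20525175 per library in WT and ΔSE tissue and between 26848053 and 30329601 in the single-enhancer lines. Of the former, 21.7 to 42.9% fell on Rn45s, the precursor of ribosomal RNA, and of the latter 0.0765 to 0.924%. By group the Rn45s share was 29.2 to 40.4% in WT p6 and 29.7 to 33.4% in WT p18. It was 21.7 to 36.3% in ΔSE p6 and 35.7 to 42.9% in ΔSE p18, so that the genotypes did not overlap at p18. The part of the Rn45s share in the comparisons below was not tested. Member counts ranged from 42 reads for Cebpd to 35166 for Elf5. Levels are given as normalized CPM, that is, read counts brought to 1 library size with TMM factors, which edgeR takes from a trimmed mean of log ratios. As a check of the labels, Csn1s2b stood at 41.8 to 215 in WT and 2.58 to 15.4 in ΔSE tissue at p18, and Csn3 at 5065 to 6466 and 49.3 to 143. The mammary markers Krt8, Krt18, Epcam and Krt14 were present in all 14 WT and ΔSE libraries, Krt18 at 106 to 317. In WT p6 replicate 2 the 14 milk protein genes summed to 681, against 5462 and 5121 in replicates 1 and 3, and that library also held the lowest WT Elf5 level. Muscle genes (a list of 15) summed to 5387 to 7271 in WT p6, 30.5, 2360 and 3540 in WT p18, 211 to 11463 in ΔSE p6 and 25.5 to 56.8 in ΔSE p18. Fibroblast genes (a list of 8) summed to 1058, 9245 and 3951 in WT p6 and to 10029 to 12563 in ΔSE p6. The part of these differences in the results below was not tested except where a fit with a muscle covariate is named.

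Which factors accompany the switch from early to late pregnancy was asked first in WT tissue. Elf5 rose 6.15-fold and Nr3c1 rose 1.91-fold between p6 and p18, while the other 8 members did not pass the test. The 2 members that rose, of 10, stand beside 17.2% of all 17844 genes called higher, and the 0 called lower by edgeR beside 12.4%. At an unadjusted p under 0.05 in edgeR there were 3 members, beside 7192 of all 17844 genes. DESeq2 called 2 members, and over all genes 3007 higher and 2831 lower. The median log2 difference of the members was 0.14, and that of all genes was -0.05. Under scaling by library totals the split over all genes was 763 higher and 3663 lower, and under scaling by 13 luminal epithelial genes 564 and 3890, in place of 3068 and 2211.

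Elf5 stood at 119.9, 37.5 and 159.9 normalized CPM in the 3 WT libraries of p6 and at 604, 773 and 573 in those of p18. All 3 libraries of p18 lay above all 3 of p6. The log2 fold change was 2.62 ± 0.39 (SE), with an adjusted p of 0.000136 (edgeR). Without WT p6 replicate 2, the low library, the log2 fold change was 2.20, and the call held in 15 of 16 alternatives, with adjusted p from 1.09e-07 to 0.853, the exception being the factor of unwanted variation. In ΔSE tissue Elf5 stood at 51.6, 29.5, 29.0 and 34.7 at p6 and at 558, 547, 352 and 396 at p18. There the rise was 12.8-fold (log2 3.68 ± 0.35, adjusted p = 2.05e-06), again without overlap between stages, and the call was lost with a factor of unwanted variation (0.88).

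Nr3c1 stood at 114, 114 and 129 in WT p6 and at 238, 244 and 199 in WT p18, without overlap. Its log2 fold change was 0.93 ± 0.13 (adjusted p = 9.04e-05). The call was lost with a minimum log2 fold change of 1, with library totals (log2 0.55), with scaling by luminal genes (0.46) and with a factor of unwanted variation (0.90), adjusted p over all alternatives running from 1.39e-10 to 0.392. In ΔSE tissue Nr3c1 stood at 127, 129.8, 132 and 163 at p6 and at 166, 169.6, 159.9 and 186 at p18. The highest library of p6 lay above the lowest of p18, and the log2 fold change was 0.31 ± 0.11 (adjusted p = 0.0462). This call was lost on leaving out p6 replicate 1, 2 or 3 or any of the 4 libraries of p18 (log2 from 0.26 to 0.34, adjusted p from 0.0529 to 0.125), with the muscle covariate (0.35), with RLE size factors (0.29), without a filter on low counts (0.30), with a factor of unwanted variation (0.27) and with a minimum log2 fold change of 1, and the direction turned under library totals (-0.29) and luminal scaling (-0.83).

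**Figure D1:**
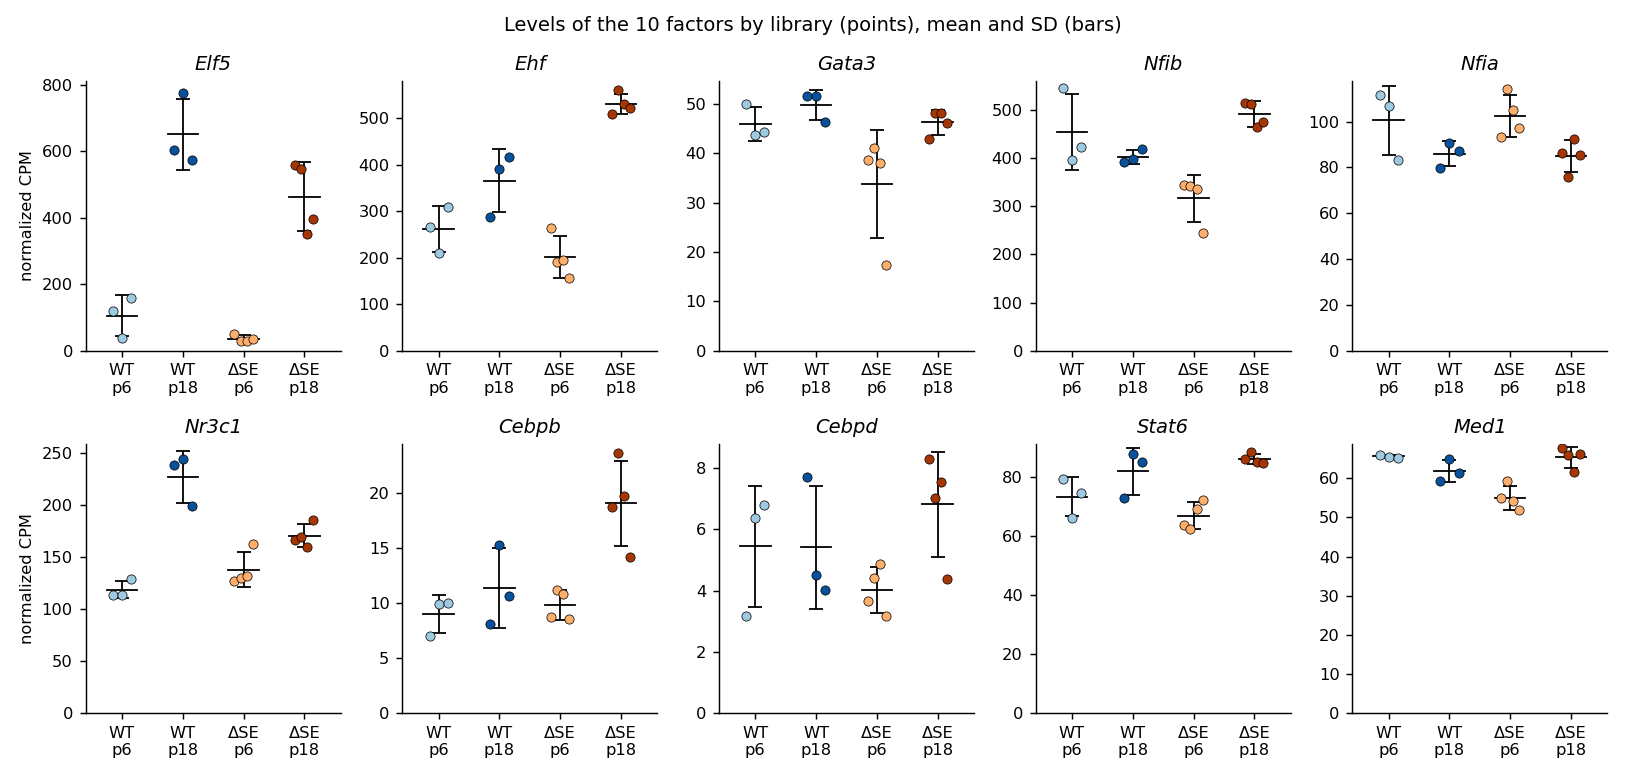
Normalized CPM (linear axes starting at 0) of each factor in the 14 WT and ΔSE libraries. Points are libraries, horizontal lines the group means and vertical bars the SD. Elf5 at p18 (352 to 773) lies above Elf5 at p6 (29.0 to 159.9) in both genotypes, and Gata3, Nfib and Nr3c1 each have 1 ΔSE p6 library apart from the other three.

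In ΔSE tissue 8 of 10 members rose between p6 and p18, and Gata3 and Nfia did not pass the test. Over all genes 17.3% were called higher and 18.3% lower, and edgeR called 0 members lower. At an unadjusted p under 0.05 in edgeR there were 10 members, beside 8016 of all 17844 genes. DESeq2 called 9 members, Nfia being lower, and over all genes 3159 higher and 3520 lower. The members' median log2 difference was 0.55, against -0.07 for all genes. These directions depend on the scaling. With library totals the median of all genes moved to -0.65, and 5 members had positive values, of which 2 were called, with 1 member called lower. With luminal scaling the median of all genes moved to -1.16 and 2 members had positive values, 1 called higher and 5 called lower. Under both scalings 9 of 10 members lay above the median of all genes. A change of scaling moves all genes by about the same amount, so that this position could hardly change and is no test of the directions. The split over all genes was 628 higher and 7969 lower with library totals and 328 and 13115 with luminal scaling, in place of 3083 and 3265. The 13 luminal genes summed to 556 to 1053 in ΔSE p6 and to 1574 to 1720 in ΔSE p18. Of these 13 genes 11 rose and 2 fell, while 15 of 15 muscle genes and 7 of 8 fibroblast genes fell.

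Among the epithelial factors Ehf rose 2.64-fold in ΔSE tissue, from 264, 190.1, 196 and 156 at p6 to 510.1, 560.2, 532 and 523 at p18. The stages did not overlap, and the log2 fold change was 1.40 ± 0.17 (adjusted p = 1.67e-05), falling to 0.35, no longer called, with luminal scaling and likewise with a factor of unwanted variation. In WT tissue Ehf stood at 266, 209.6 and 309 at p6 and at 289, 391 and 417 at p18, which overlap, with a log2 difference of 0.48 ± 0.19 (adjusted p = 0.0705). Without WT p18 replicate 1 or WT p6 replicate 3 it passed the test there (log2 0.63 and 0.60, adjusted p = 0.0302 and 0.0467, of a range from 0.0302 to 0.914 over the alternatives). The direction of Ehf in WT tissue was kept in 14 of 16 alternatives, the lowest log2 value being -0.35. Gata3 did not pass in either genotype: it stood at 43.7 to 49.9 in WT p6 and 46.3 to 51.6 in WT p18, and the ΔSE libraries held 38.6, 41.0, 38.0 and 17.4 at p6 and 42.8 to 48.1 at p18. The ΔSE log2 difference of Gata3 was 0.46 ± 0.19 (adjusted p = 0.0715). It passed on leaving out p6 replicate 1 (log2 0.56) or 2 (0.58), and was called lower with luminal scaling (-0.55), adjusted p over the alternatives running from 0.0235 to 1.

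Of the 2 nuclear factor I members, Nfib passed the test in ΔSE tissue. It stood at 345, 343, 335 and 244 in ΔSE p6 and at 515, 513, 464 and 475 in ΔSE p18, all libraries of p18 above those of p6. Nfib rose 1.55-fold (log2 0.63 ± 0.14, adjusted p = 0.00208), a call lost with the muscle covariate (log2 0.56), library totals (0.04), a factor of unwanted variation (0.33) and luminal scaling, where the value was -0.43. In WT tissue Nfib stood at 545, 395 and 423 at p6 and at 391, 397 and 419.5 at p18, a log2 difference of -0.17 ± 0.16 (adjusted p = 0.443). Nfia was lower at p18 in value in both genotypes, without passing the test, with log2 differences of -0.23 ± 0.13 in WT and -0.27 ± 0.11 in ΔSE (adjusted p = 0.209 and 0.0785). Without WT p6 replicate 3 the WT value was -0.37 and passed (adjusted p = 0.0407, the lowest over the alternatives, the highest being 0.808), as it did with luminal scaling (-0.72). The ΔSE value passed with DESeq2 (-0.28), with these 2 groups alone (-0.27) and under library totals (-0.85) and luminal scaling (-1.37).

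The C/EBP members are the 2 with the fewest reads. Cebpb stood at 8.71, 11.2, 10.8 and 8.55 in ΔSE p6 and at 18.7, 23.6, 19.7 and 14.2 in ΔSE p18, a rise of 1.94-fold without overlap (log2 0.96 ± 0.20, adjusted p = 0.00145). The call ended with library totals (0.35), with a factor of unwanted variation (0.91), with a minimum log2 fold change of 1 and with luminal scaling, where the value was -0.13. In WT tissue the p18 libraries of Cebpb spread from 8.11 to 15.3, over the p6 range of 7.04 to 10.01, with a log2 difference of 0.33 ± 0.23 (adjusted p = 0.306). Cebpd stood at 3.16 to 4.87 in ΔSE p6 and at 8.29, 7.01, 7.55 and 4.36 in ΔSE p18, which overlap. Its log2 fold change of 0.76 ± 0.28 (adjusted p = 0.0455) was lost on leaving out p6 replicate 1, 2 or 4 or p18 replicate 1, 2 or 3 (adjusted p from 0.0607 to 0.123) with the muscle covariate (0.24), library totals (0.16) and a factor of unwanted variation (0.87), and was -0.31 with luminal scaling. Cebpb shares 312 exonic bases with Tmem189 and Cebpd 562 with Spidr, both on the opposite strand. Whether counting used the strand is not given in the sources used here. Reads in these bases may therefore belong to the partner or have been set aside as ambiguous.

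Stat6 and Med1 were both called in ΔSE tissue. Stat6 rose 1.29-fold, from 62.6 to 72.3 across the libraries of p6 to 84.6 to 88.3 across those of p18 (log2 0.36 ± 0.10, adjusted p = 0.00879). Med1 rose 1.19-fold, from 51.8 to 59.2 to 61.5 to 67.6 (log2 0.25 ± 0.09, adjusted p = 0.0343). Both were called lower with luminal scaling (-0.76 and -0.85), and were below 0, not called, with library totals (-0.23 and -0.35). The call of Med1 was also lost without p18 replicate 1, 2 or 4 (adjusted p from 0.0710 to 0.0863), with the muscle covariate (0.31), without a filter on low counts (0.25) and with a factor of unwanted variation (0.23, which ended that of Stat6 too, at 0.21). In WT tissue Stat6 gave 0.16 ± 0.11 and Med1 -0.08 ± 0.10 on the log2 scale (adjusted p = 0.308 and 0.566).

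**Figure D2:**
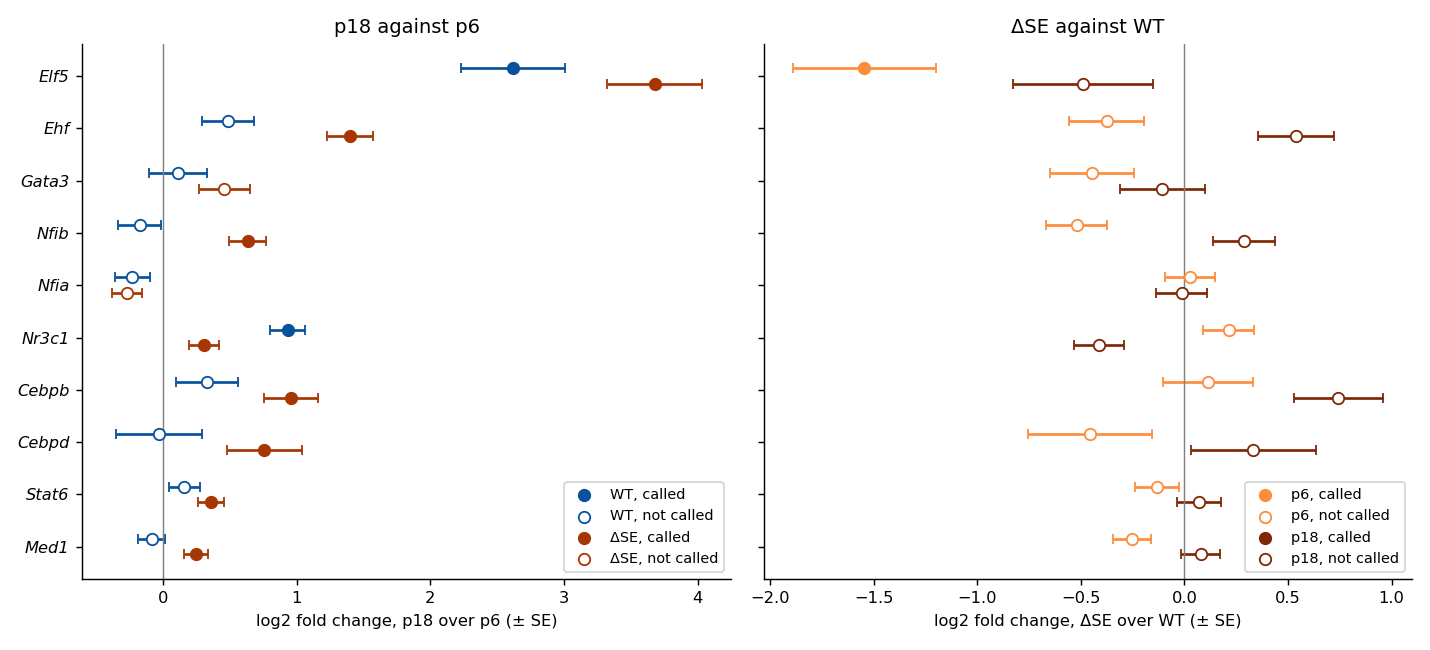
Log2 fold changes from edgeR with 1 SE on each side, p18 over p6 in each genotype (left) and ΔSE over WT at each stage (right). Filled points have an adjusted p under 0.05. Filled points on the left are Elf5 and Nr3c1 for WT and 8 of 10 members for ΔSE, and the single filled point on the right is Elf5 at p6 (-1.55).

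Whether the rise from p6 to p18 differs between genotypes was tested as an interaction of genotype and stage. None of the 10 members passed, where 0.151% of all genes did. An unadjusted p under 0.05 in edgeR was found for 5 members, beside 2955 of all 17844 genes. The difference of rises was 0.81 ± 0.21 for Nfib (adjusted p = 0.0979), 0.91 ± 0.26 for Ehf (0.114) and 1.06 ± 0.49 for Elf5 (0.291) on the log2 scale. For Nr3c1 the rise was smaller in ΔSE tissue by value, at -0.63 ± 0.17 (adjusted p = 0.113). DESeq2 called Nfib, Ehf and Nr3c1, and over all genes 282 higher and 302 lower. Without WT p6 replicate 2 edgeR called Elf5 (1.50), Ehf (1.09) and Nfib (0.94), so that the outcome depends on that library. This was not particular to the members, since over all genes that fit called 476 higher and 560 lower, in place of 16 and 11. With luminal scaling Nr3c1 was called (-1.30), and the split over all genes was 34 higher and 1775 lower in place of 16 and 11. The larger number of members called in ΔSE than in WT tissue is therefore not a shown difference between the genotypes.

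Levels of ΔSE against WT tissue were compared at each stage. These comparisons share their libraries with those of the stages. At p6 Elf5 was lower in ΔSE tissue, 0.343-fold of WT, and the other 9 members did not pass, where 1.03% of all genes did. The WT libraries at 119.9, 37.5 and 159.9 and the ΔSE libraries at 51.6, 29.5, 29.0 and 34.7 overlap through WT p6 replicate 2. The log2 fold change was -1.55 ± 0.34 (adjusted p = 0.0458). Of 17 alternatives 8 kept the call, and adjusted p ran from 0.000162 to 0.268. Leaving out WT p6 replicate 2 gave -1.96, also called, whereas leaving out WT p6 replicate 1 (-1.45) or 3 (-1.12), or ΔSE p6 replicate 2 (-1.46), 3 (-1.46) or 4 (-1.54), ended the call. Members whose groups did not overlap at p6 were Nfib, Gata3 and Med1, 3 of 10, all lower in ΔSE, where 11.3% of all genes did not overlap. Their log2 differences were -0.52 ± 0.15, -0.45 ± 0.20 and -0.25 ± 0.09 (adjusted p = 0.0893, 0.273 and 0.172). Nfib passed without WT p6 replicate 2 (-0.62), a fit that called 961 genes higher and 806 lower, in place of 89 and 94. DESeq2 called Nfib and Med1 beside Elf5, and over all genes 478 higher and 430 lower. Library totals (-1.41), a fit of these 2 groups alone (-1.56) and a factor of unwanted variation (-1.05) also ended the call of Elf5. With luminal scaling the median of all genes moved to 0.45 and the split was 1493 higher and 61 lower, in place of 89 and 94, and Elf5 was still lower. Of 14 milk protein genes 6 were also called lower here, and fibroblast genes were higher in sum, as given above. The milk protein list holds Csn3, of the casein locus that ΔSE alters, at 0 to 5.73 in ΔSE p6 and 44.7 to 409 in WT p6. Whether the fall of milk protein genes goes with that of Elf5 or with the deletion itself was not tested.

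At p18 none of the 10 members passed between ΔSE and WT tissue, where 0.314% of all genes did. An unadjusted p under 0.05 in edgeR was found for 3 members, beside 2200 of all 17844 genes. The groups did not overlap for 4 of 10 members, where 15.1% of all genes did not overlap. Elf5 (352 to 558 in ΔSE, 573 to 773 in WT) and Nr3c1 (159.9 to 186, 199 to 244) were lower in every ΔSE library. Ehf (510.1 to 560.2 in ΔSE, 289 to 417 in WT) and Nfib (464 to 515, 391 to 419.5) were higher in every ΔSE library. The log2 differences were -0.49 ± 0.34 for Elf5, -0.41 ± 0.12 for Nr3c1, 0.54 ± 0.18 for Ehf and 0.29 ± 0.15 for Nfib (adjusted p = 0.604, 0.144, 0.206 and 0.446). For Elf5 the interval of 2 SE on each side ran from -1.17 to 0.19. Cebpb, which overlaps between genotypes, gave 0.74 ± 0.22 (adjusted p = 0.138). DESeq2 called Nr3c1 and Cebpb, and over all genes 135 higher and 361 lower. A fit of these 2 groups alone called Ehf and Cebpb, and over all genes 257 higher and 567 lower. With luminal scaling 7 genes were higher and 88 lower, in place of 18 and 38. Over the alternatives adjusted p ran from 0.0323 to 0.557 for Nr3c1, from 0.0181 to 0.670 for Ehf and from 0.0363 to 0.479 for Cebpb.

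Ratios within a library do not depend on the scaling between libraries, and 6 were tested by exact two-sided permutation. The ratio of Elf5 to Krt18, a keratin of luminal cells, was 0.753, 0.183 and 1.15 in WT p6 and 2.92, 2.58 and 1.81 in WT p18. In ΔSE tissue it was 0.198 to 0.329 at p6 and 1.21 to 2.01 at p18. Averaged over genotypes it was 5.37-fold higher at p18 (exact permutation within genotype, adjusted p = 0.00286 over 6 ratios, the raw p of 0.00143 being the smallest that 1400 arrangements can give). Krt18 itself rose by 0.71 in WT and 0.95 in ΔSE tissue on the log2 scale.

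Elf5 also rose against other members, by 4.97-fold relative to Ehf and 7.69-fold relative to Gata3 (adjusted p = 0.00286 each by exact permutation, lower at p6 in every library of the same genotype). Counts of Elf5 per count of Ehf were 0.179 to 0.518 in WT p6 and 1.37 to 2.09 in WT p18, and 0.148 to 0.222 in ΔSE p6 and 0.662 to 1.09 in ΔSE p18. By genotype this ratio was 0.496-fold in ΔSE relative to WT over the 2 stages (exact permutation within stage, adjusted p = 0.0147), the only one of the 6 ratios to pass. At p18 the 4 ΔSE libraries all lay below the 3 WT libraries, and at p6 the genotypes overlap through WT p6 replicate 2. Leaving out ΔSE p6 replicate 2 or 3 gave log2 differences of -0.98 and -0.97 in place of -1.01, each with an adjusted p of 0.0600 by exact permutation, the highest of a range from 0.0114.

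The ratio of Nfib to Nfia was 1.40-fold higher at p18 (exact permutation, adjusted p = 0.0193), with 3.70 to 5.08 in WT p6, 4.39 to 4.90 in WT p18, 2.51 to 3.69 in ΔSE p6 and 5.01 to 6.77 in ΔSE p18. The WT stages overlap and the ΔSE stages do not. The ratios of Nr3c1 to Stat6 and of Cebpb to Cebpd did not pass by stage (1.28-fold and 1.19-fold, adjusted p = 0.0926 and 0.364 by exact permutation). Nr3c1 to Stat6 ran from 1.43 to 1.73 in WT p6 and from 2.34 to 3.26 in WT p18, without overlap, and from 1.91 to 2.25 and 1.88 to 2.20 in ΔSE tissue, where the stages overlap.

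**Figure D3:**
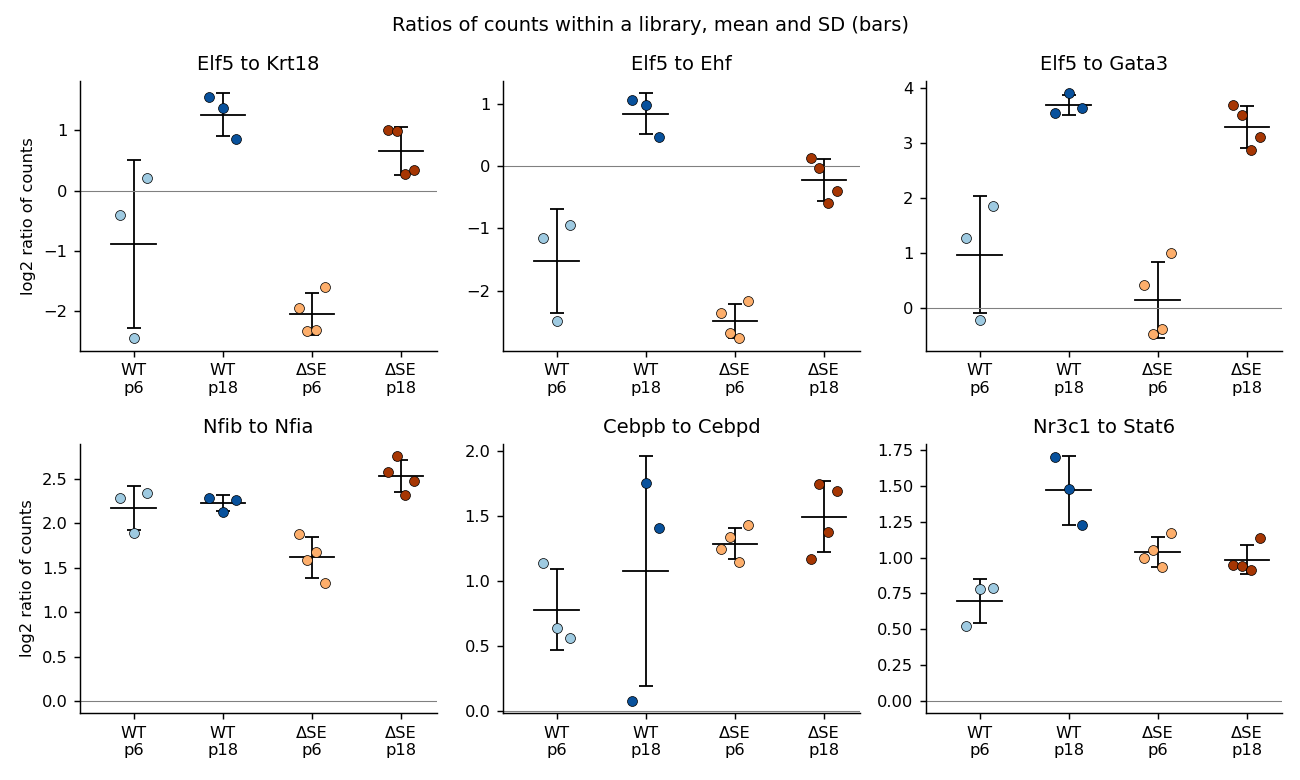
Log2 ratios of counts of one gene to another within each of the 14 libraries, with group means and SD. All 3 ratios of Elf5 lie higher at p18 than at p6 within each genotype, and Elf5 to Ehf at p18 lies lower in every ΔSE library (0.662 to 1.09 as a ratio) than in every WT library (1.37 to 2.09).

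Per kilobase of exon, taken as the union of all annotated exons of a gene, the order of the members changed with stage. The length of the transcripts present was not measured, so that the order between genes depends on this choice. Ehf led in WT p6 at 46.9 ± 8.9 normalized CPM per kb (SD, n = 3), followed by Nfib at 30.4 ± 5.3 and Elf5 at 18.0 ± 10.6, whose ranges overlap. Elf5 led in WT p18 at 111 ± 18.3, above Ehf at 65.6 ± 12.2 without overlap, and Nr3c1 at 29.5 ± 3.2 overlapped Nfib at 26.9 ± 1.0. In ΔSE p6 Elf5 ranked ninth, at 6.16 ± 1.80 (n = 4), in a run from Nfia to Elf5 in which each neighbour overlaps the next. In ΔSE p18 Ehf at 95.3 ± 3.8 and Elf5 at 78.8 ± 17.8 led and overlap. Cebpd was lowest in all 4 groups, at 1.07 to 1.82.

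The genes whose pattern over the 14 libraries was most like that of Elf5 were Hhipl2, Ccdc64b, Muc15, Timd2 and Lipa. Likeness was the root-mean-square difference of centred log2 levels among 11439 other genes whose normalized counts averaged 50 or more, and ran from 0.20 for Hhipl2 to 0.34 for Lipa. These 5 genes had log2 fold changes between 2.32 and 2.51 from p6 to p18 in WT and between 3.32 and 3.93 in ΔSE. Of the other members Ehf came closest, at rank 535 with a difference of 1.32, then Nr3c1 at rank 1930 (1.55), and Nfia was farthest, at rank 8081 (1.94).

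Related genes were counted by family, each against the all-gene shares given above for the same comparison. Of 22 ETS factors, the family of ELF5 and EHF, 2 rose and 4 fell in WT tissue, with a median log2 difference of -0.13, and in ΔSE tissue 6 rose and 7 fell, with a median of -0.14. Etv4, an ETS factor of branching epithelia, fell in both (log2 -2.81 ± 0.47 and -3.20 ± 0.40, adjusted p = 0.000388 and 1.91e-05), and Elk1 fell by less (-0.73 and -0.61). Gabpa rose in both (0.43 and 0.37), but gave -0.04 and -0.71 with luminal scaling and -0.21 in ΔSE tissue with library totals. In ΔSE against WT at p6, Ets1 (0.53) and Etv5 (0.69) were higher and Elf5 lower, the only 3 ETS factors called. Of the 4 nuclear factor I genes, Nfic (-0.58 ± 0.16) and Nfix (-0.48 ± 0.13) fell in WT tissue (adjusted p = 0.0125 and 0.0111) and gave -0.09 and -0.24 in ΔSE tissue, not called, so that Nfib is the 1 of 4 that rose there.

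Of 6 steroid receptors, Nr3c1 was the 1 that rose in each genotype, whereas 4 fell in WT and 3 in ΔSE tissue. The estrogen and progesterone receptor genes Esr1 and Pgr fell in both, with log2 fold changes of -0.79 and -1.09 in WT and -1.18 and -1.51 in ΔSE. Hormone-sensing genes, a list of 11 that holds Esr1 and Pgr, moved with these receptors, 10 falling in WT and 11 in ΔSE tissue. Of 13 genes induced by glucocorticoids elsewhere, 1 rose and 1 fell in WT tissue and 7 rose in ΔSE tissue, with medians of -0.06 and 0.54. Mt1, a metallothionein, rose in both (1.50 ± 0.25 and 1.90 ± 0.22, adjusted p = 0.000388 and 1.20e-05), and Dusp1, a phosphatase of MAP kinases, fell in WT tissue (-0.70 ± 0.21, adjusted p = 0.0172). Tsc22d3 (0.88), Per1 (0.97) and Fkbp5 (0.67) were among the 7 in ΔSE tissue, and had values of -0.28, -0.16 and -0.43 there with luminal scaling. Per1 was also lower in ΔSE than in WT tissue at p6 (-0.96), the 1 of 13 called.

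Of 7 C/EBP genes, 2 fell in WT tissue, and 4 rose and 2 fell in ΔSE tissue. Cebpa, a factor of fat cells among others, fell in both (log2 -0.68 and -1.03), while 5 and 11 of 16 adipocyte genes fell, and Ddit3, a stress-induced relative, fell in both (-0.68 and -0.62). Of the 6 measured GATA and FOG genes, Gata2 (-1.36) and Zfpm1 (-0.72), a GATA cofactor, fell in WT tissue, and 3 fell in ΔSE tissue. Of 7 STAT genes, Stat5a (0.76 ± 0.20) and Stat5b (0.41 ± 0.12) rose in WT tissue (adjusted p = 0.00800 and 0.0149) and rose in ΔSE tissue (1.28 and 0.48), where 4 rose and 1 fell, but with luminal scaling Stat5b gave -0.10 and -0.62. In the STAT6 pathway, 10 measured genes, the interleukin-4 receptor gene Il4ra rose in both (1.23 ± 0.17 and 0.60 ± 0.14, the latter -0.53 with luminal scaling) and Il13ra1 fell in both (-0.89 and -1.34). Socs3, a feedback inhibitor, fell in WT tissue (-0.94 ± 0.24).

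Of 33 Mediator genes, 7 rose and 3 fell in WT and 5 rose and 2 fell in ΔSE tissue, medians being 0.17 in both. Med22 (0.68 and 0.44) and Med8 (0.73 and 0.56) rose in both genotypes, although with luminal scaling they gave -0.65 and -0.54 in ΔSE tissue, and Med12l (-1.45 and -1.65), of the kinase module, fell in both. Med12 fell in WT tissue (-0.68 ± 0.15). Of 8 other coactivators, 2 fell in WT tissue, among them Carm1 (-0.45 ± 0.13), and 1 rose and 1 fell in ΔSE tissue. Between ΔSE and WT at p18 edgeR called 0 of the 115 genes of these 10 lists. An unadjusted p under 0.05 was found for 15 of the 115, beside 2200 of all 17844 genes. DESeq2 called 4 of the 115, and over all genes 135 higher and 361 lower. All 14 milk protein genes rose in WT and 13 of 14 in ΔSE tissue. Csn3 was the 1 called between genotypes at p18 (log2 -6.00 ± 0.88, adjusted p = 0.00994).

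**Figure D4:**
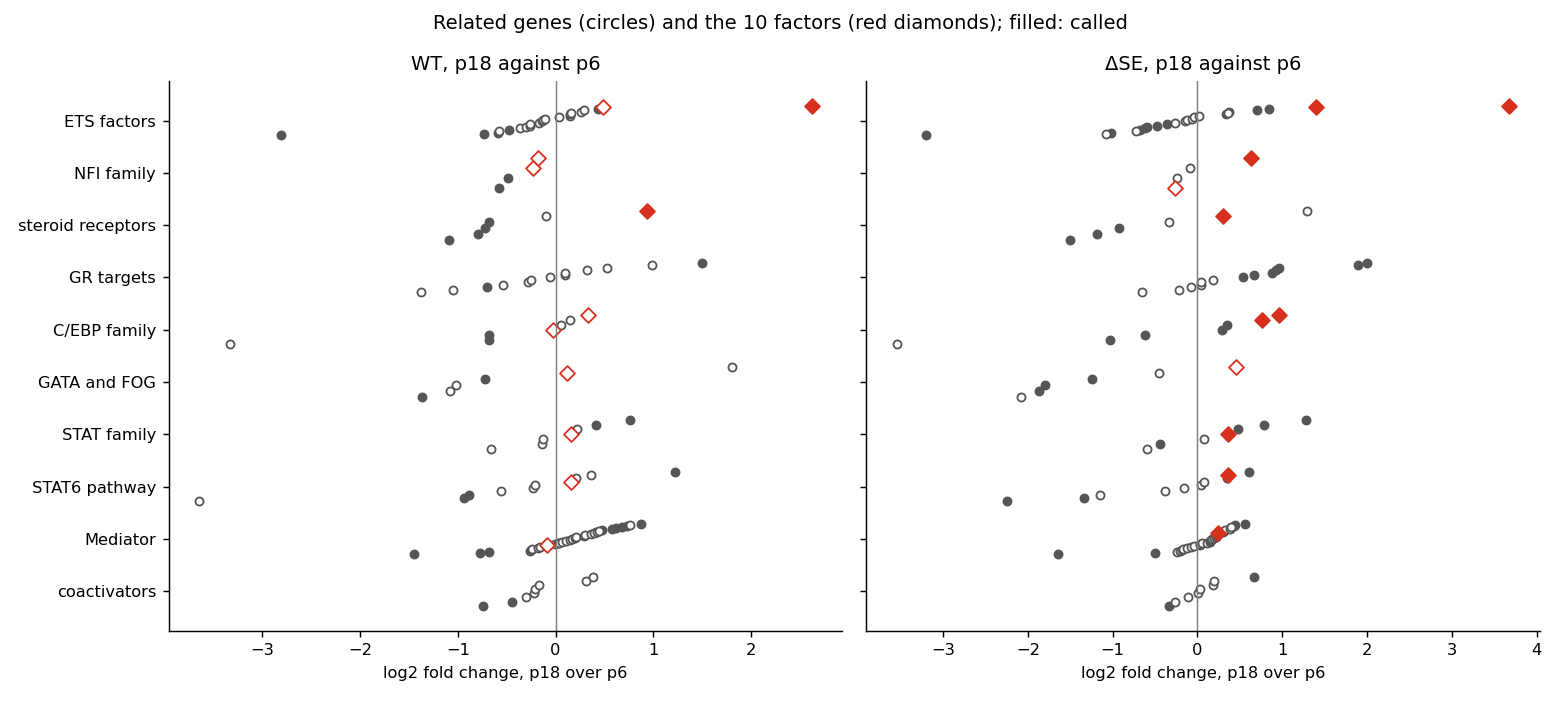
Log2 fold change of p18 over p6 for each measured gene of 10 lists, in WT (left) and ΔSE (right). Circles are related genes, red diamonds the 10 factors, and filled symbols have an adjusted p under 0.05. Elf5 lies farthest to the right of the ETS factors in both panels (2.62 and 3.68), and Nr3c1 is the 1 filled symbol above 0 among steroid receptors.

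The single-enhancer lines were compared with each other, being of 1 set of libraries. As a check of the labels, Csn3 stood at 270.1 to 1312 in delCsn3-PE and 5201 to 6764 in WT, and Csn1s2b at 27.1 to 48.9 in delCsn1s2b-E and 42.9 to 222 in WT, the latter overlapping. Within the set, Csn3 stood at 12963 to 19727 in delCsn1s2b-E and Csn1s2b at 119 to 222 in delCsn3-PE, neither overlapping between the lines. None of the 10 members passed between delCsn1s2b-E and delCsn3-PE, where 0.181% of all genes did. An unadjusted p under 0.05 in edgeR was found for 3 members, beside 860 of all 17125 genes. On the scale of the 8 libraries of this fit Elf5 stood at 786, 1227 and 950.0 in delCsn1s2b-E and at 1195 and 674 in delCsn3-PE. The lowest p was that of Nfia, at 99.8, 92.9 and 93.8 against 66.9 and 67.3, a log2 difference of 0.51 ± 0.12 (adjusted p = 0.285). Cebpd had a larger log2 difference, -0.65 ± 0.28 (adjusted p = 0.974), at 3.02, 2.44 and 3.00 against 3.84 and 4.99. DESeq2 called Nfia, with an adjusted p of 0.0263, the lowest of a range up to 1. Over all genes DESeq2 called 25 higher and 71 lower.

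Against WT p18 these lines differ in set, Rn45s share and possibly stage as well as in genotype, which cannot be told apart. In delCsn1s2b-E 4 of 10 members were called, where 32.3% of all genes were, and in delCsn3-PE 3 of 10, where 25.2% were. With library totals the medians of all genes moved to 0.40 and 0.42 and the splits to 5444 higher and 874 lower and to 5103 and 627, in place of 2950 and 2576 and of 2355 and 1968. With luminal scaling they were 2813 and 1480 and 437 and 1386. Both comparisons share the WT libraries. Ehf was higher in both lines, at 727, 632 and 544 in delCsn1s2b-E and 588 and 698 in delCsn3-PE against 298, 409 and 429 in WT, with log2 differences of 0.74 ± 0.18 and 0.76 ± 0.20 (adjusted p = 0.0109 and 0.0196). Cebpb was higher in both (0.70 ± 0.22 and 1.04 ± 0.24, adjusted p = 0.0301 and 0.0114).

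Nr3c1 stood at 356, 486 and 379.7 in delCsn1s2b-E, at 456 and 275 in delCsn3-PE and at 245, 255 and 204 in WT. It passed in the first line (0.79 ± 0.20, adjusted p = 0.0137) and not in the second (0.64 ± 0.22, adjusted p = 0.0592). Cebpd was lower in delCsn1s2b-E (-0.98 ± 0.26, adjusted p = 0.0168) and Nfia in delCsn3-PE (-0.41 ± 0.12, adjusted p = 0.0338). Elf5 did not pass in either (0.55 ± 0.25 and 0.47 ± 0.27, adjusted p = 0.110 and 0.224), though it was called higher in both with library totals (0.94 and 0.84). Leaving out 1 library ended several of these calls. Ehf in delCsn3-PE was lost without its replicate 2 (0.63), and also with luminal scaling (0.69), and Cebpb there without its replicate 1 (0.81). Nr3c1 in delCsn1s2b-E was lost without WT replicate 3 (0.68) or its own replicate 2 (0.62), where Nr3c1 in delCsn3-PE was gained without its replicate 2 (0.96). Cebpb in delCsn1s2b-E was lost without WT replicate 1 (0.49) or 3 (0.63) or its own replicate 1 (0.67) or 2 (0.65), and Cebpd there without WT replicate 1 (-0.66) or its own replicate 2 (-0.91). Nfia in delCsn3-PE, which was at 0.01 with library totals, was lost without WT replicate 2 (-0.37) or 3 (-0.42) or its own replicate 1 (-0.40) or 2 (-0.41). Fibroblast genes summed to 2523 to 3448 in delCsn1s2b-E, 2086 to 2966 in delCsn3-PE and 5125 to 6765 in WT, and the 14 milk protein genes to 179842 to 293953, 152075 and 297468, and 93077 to 127109.

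**Figure D5:**
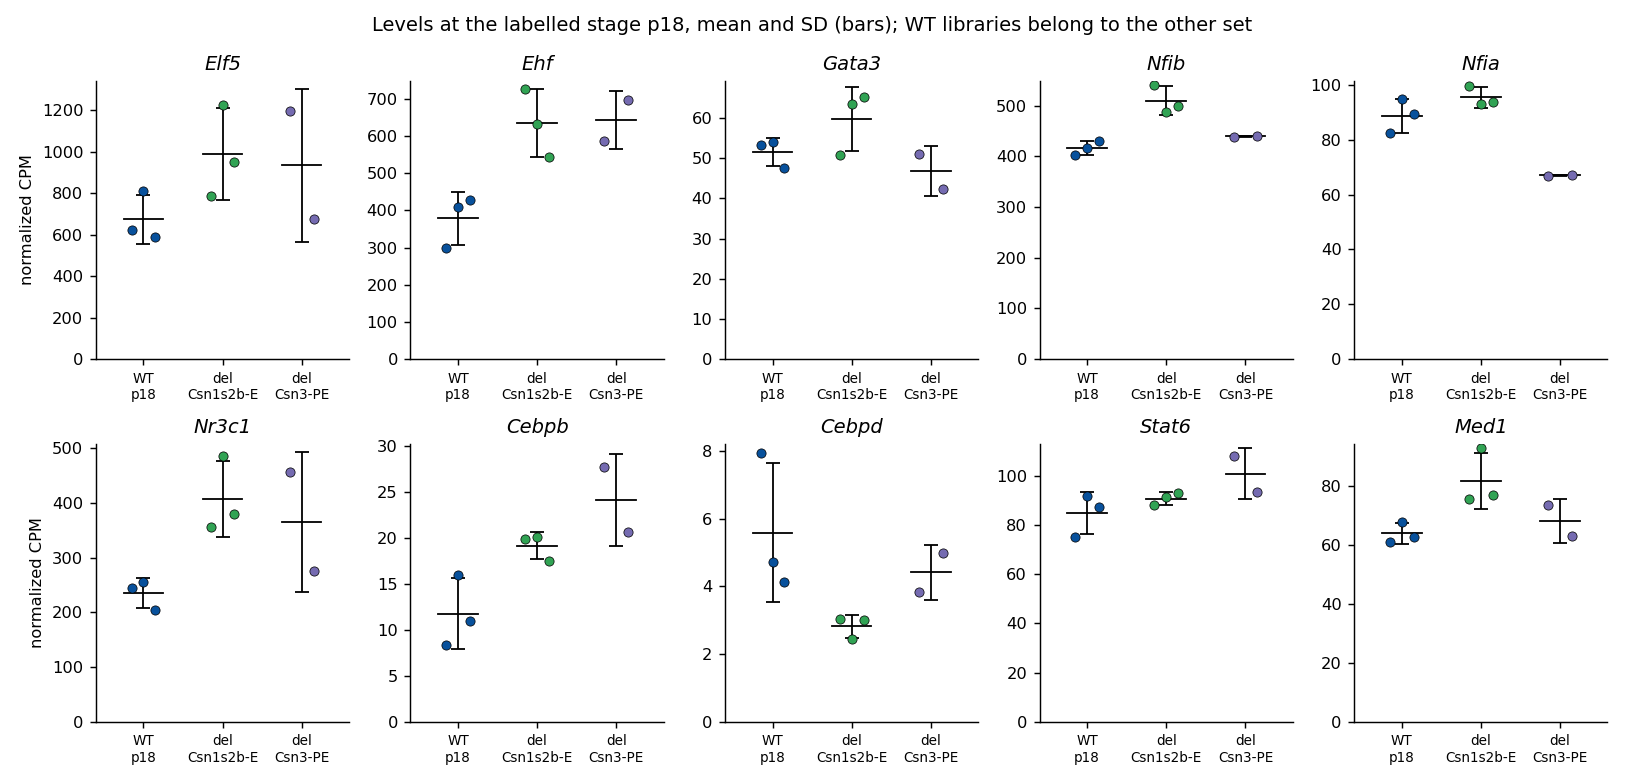
Normalized CPM (linear axes starting at 0) of each factor in WT p18 libraries and in the delCsn1s2b-E and delCsn3-PE libraries labelled p18, on the scale of these 8 libraries. Points are libraries, lines the means and bars the SD. Ehf lies higher in all 5 libraries of the lines (544 to 727) than in the 3 WT libraries (298 to 429).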

How the data were processed

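Total RNA from mammary tissue was depleted of ribosomal RNA and sequenced in paired-end TruSeq Stranded libraries. The deposited values are raw read counts per gene, which the authors made with Trimmomatic, STAR (mm10) and, per the labels of the single-enhancer lines, HTSeq. Entries of those 5 files that name no gene (no feature, 13.2 to 20.9%; not unique, 8.57 to 9.62%; ambiguous, 0.672 to 0.821%) were left out. Genes with at least 10 reads in total entered edgeR (version 4.0.16; R version 4.3.3) with TMM factors, glmQLFit, glmQLFTest and Benjamini-Hochberg adjustment over all genes at 0.05, with no minimum fold change. One model held the 14 WT and ΔSE libraries in 4 groups (17844 genes), another WT p18 and the single-enhancer lines (8 libraries, 17125 genes). SE was derived from the F statistic. Replicates are independent biological samples per the study's methods. Replicate libraries differed by more than sampling noise (chi-square per gene 7.93 to 127 over 22 pairs). Ratios used counts plus 0.5.

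Members and lists were chosen with earlier results of these data known. Named were all members, from each list the genes called in WT p18 against p6, at most 4 by lowest p, those called in ΔSE against WT at p18, and 5 genes most like Elf5 (no predicted genes). Ets1, Etv5, Tsc22d3, Per1 and Fkbp5 were named after their values were seen. Some genes that this rule would name are not reported here. Alternatives were DESeq2 (version 1.42.0), other scalings and filters, a minimum log2 fold change of 1, 2 groups alone, the replicate block, 1 factor of unwanted variation, a muscle covariate and each library left out. The edgeR test was checked on simulated data for the comparison of ΔSE against WT at p18. Exons were those of GENCODE vM21.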

Additional observations from a re-analysis of the deposited data

Results flagged for a closer look

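In groups of 4 libraries, a library was singled out where its gap to the nearest other, as a share of the group's range, exceeded Dixon's critical value. Of 20 such groups (10 members in ΔSE p6 and ΔSE p18) 3 were singled out, and chance does so in about 1 in 20 groups. All 3 concern ΔSE p6 replicate 4. Nfib stood at 244 normalized CPM there, against 335 in the next library, a gap of 0.907 of the range. Gata3 stood at 17.4 against 38.0 (0.871). Nr3c1 stood at 163 against 132 (0.867), the other way. In the same library adipocyte genes (a list of 16) summed to 10957, against 5662 to 6728 in the other 3, and the 13 luminal genes to 556, against 817 to 1053. Their part in these values was not tested. No member passed the interaction of genotype and stage.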

How the results depend on the processing

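Members called numbered 2 for WT p18 against p6, 8 for ΔSE p18 against p6, 0 for ΔSE against WT at p18 and 1 at p6, 0 for the interaction, 0 between the lines, 4 for delCsn1s2b-E against WT and 3 for delCsn3-PE against WT. DESeq2 called 2 at p18, 3 at p6, 3 in the interaction and 1 between the lines. A minimum log2 fold change of 1 left 1 for WT stages, 2 for ΔSE stages, 0 for delCsn1s2b-E and 1 for delCsn3-PE. Library totals gave 1 for WT stages, 3 for ΔSE stages, 0 at p6, 9 for delCsn1s2b-E and 6 for delCsn3-PE. Luminal scaling gave 1 for the interaction and 1 for delCsn3-PE. A factor of unwanted variation gave 0 for either stage comparison and at p6 and 2 for delCsn1s2b-E, and over all genes left 6 higher and 1 lower between WT stages and 0 between ΔSE stages. The muscle covariate gave 4 for ΔSE stages, and fits of 2 groups alone 2 at p18 and 0 at p6. With the replicate block 1 was called at p18, 0 at p6 and 1 for delCsn3-PE. Replicate numbers did not pair the samples: correlations of deviations ran from 0.0959 to 0.228 in WT (3 pairs, 2 best with their own number) and from -0.0772 to 0.182 in ΔSE (4 pairs, 1 best). Leaving out 1 library gave 2 to 4 for WT stages, 5 to 7 for ΔSE stages, 0 at p18, 0 to 2 at p6, 0 to 3 for the interaction, 0 between the lines, 1 to 4 for delCsn1s2b-E and 1 to 3 for delCsn3-PE.

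Directions of values that passed in the main fit or the alternative reversed in ΔSE p18 against p6. With luminal scaling these were Nfib (-0.43), Nr3c1 (-0.83), Gata3 (-0.55), Cebpb (-0.13), Cebpd (-0.31), Med1 (-0.85) and Stat6 (-0.76). With library totals they were Nr3c1 (-0.29), Med1 (-0.35) and Stat6 (-0.23). Values that passed in neither fit also changed sign there, Gata3 falling below 0 with library totals and Nfia reaching 0.37 in an alternative. Between WT stages such changes reached -0.35 for Ehf, -0.36 for Gata3, -0.16 for Cebpb and -0.35 for Stat6, among others. Nfia in delCsn3-PE against WT gave 0.015 with library totals. The cause was not tested. Ratios by genotype, with 1 library left out, ran from -1.27 to -0.61 (Elf5 to Krt18), -1.25 to -0.87 (Elf5 to Ehf), -0.91 to -0.39 (Elf5 to Gata3) and 0.21 to 0.63 (Cebpb to Cebpd), and Cebpb to Cebpd by stage from 0.084 to 0.50. Of 1450 values of single members, 1248 kept their direction and their side of the threshold, a count that includes values called in neither fit. In ΔSE p18 against p6, the comparison with the most members called, 128 values were kept. There 43 lost the call, 10 reversed, 7 gained a call and 2 changed sign without passing. Counts of 42 reads limit Cebpd.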
